A study of Mus musculus with 12 samples.

Results

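The mitochondrial ribosomal protein genes of pre-B leukemia cells were followed through 2 manipulations, stabilization of β-catenin and editing of Ikzf1 and Ikzf3. Members were all genes of the expression table whose symbol starts with Mrpl or Mrps and a digit, pseudogenes left out. This gave 77 of 12151 genes, 48 with a large subunit symbol (Mrpl) and 29 with a small subunit symbol (Mrps). No member was lost to a filter on low values, although genes removed before deposit are not known. Of the members, 76 were found by their identifier in the GENCODE vM21 annotation of GRCm38, where all 76 are protein coding and lie on 17 chromosomes.

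RNA came from a mouse model of acute lymphoblastic leukemia, pre-B cells from the bone marrow of mice aged 6-12 weeks that had been transformed by the BCR-ABL1 oncogene. All 12 libraries carried BCR-ABL1 and 1 Ctnnb1 allele with exon 3 flanked by loxP sites (Ctnnb1Ex3fl/+). Cas9 ribonucleoproteins had carried either nontargeting guides (sgNTC, here WT) or guides against Ikzf1 and Ikzf3 (here KO), the genes of the lymphoid transcription factors Ikaros and Aiolos, and colonies had been grown from single cells. The cells then received a GFP vector for ERT2, a hormone-binding domain that does not recombine DNA, or for Cre-ERT2, which excises exon 3 once 4-OHT is added and so stabilizes β-catenin. The 4 groups, each n = 3, were named by vector and genotype (ERT2 WT and ERT2 KO, Cre-ERT2 WT and Cre-ERT2 KO) and were sampled 1 day after 4-OHT if the protocol, which is worded for chromatin experiments, holds for RNA. Cre activity and the loss of exon 3 cannot be told apart in this design. The labels do not say whether replicates were separate clones or cultures, so P values measure only the spread between these libraries. A genotype group may rest on few clones, and a clone and its genotype cannot then be told apart.

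Mitochondria keep their own ribosome, which makes the few membrane proteins encoded by mitochondrial DNA, all of them parts of the respiratory chain or the ATP synthase. Its ribosomal RNAs come from mitochondrial DNA, but every one of its proteins is encoded in the nucleus, made in the cytosol and imported. Many of these proteins descend from bacterial ribosomal proteins, while others are specific to mitochondria, and several line the tunnel exit where the growing chain meets the inner membrane.

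Values are the authors' normalized log2 values, and a difference is a difference of log2 values between group means. A gene was called when its limma P value, adjusted over all 12151 genes, lay under 0.05. Sequencing depth is unknown. The median over all genes lay between 9.06 and 9.11 in the 12 libraries. Ikzf3 mRNA was 0.65 lower in ERT2 KO than in ERT2 WT libraries (adjusted p = 5.23e-08, limma), and Ikzf1 mRNA was 1.01 higher (adjusted p = 1.93e-13, limma). An mRNA level does not measure whether the protein is lost. The study reports the deletion of Ikaros factors from western blots of its clonal lines. KO is used here as the label of these libraries. Of 11 pre-B cell markers all were in the table. In ERT2 KO libraries 8 were called lower (72.7%, against 29.3% of all genes), among them Cd79a by -0.79, and 1 higher (9.09%, against 29.8%). Of the myeloid markers 2 of 7 were listed (Lyz2 0.99 higher, Itgam 0.15 lower), and the T cell, erythroid and stromal markers were not listed. What part the change in B cell markers has in the differences below was not tested.

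The proximal promoters of 6 members are shown because the results turn on these genes. Mrpl24, Mrpl45, Mrpl22 and Mrpl17 encode proteins at the tunnel exit and rose in KO libraries, Mrpl12 fell with β-catenin in WT libraries, and Mrpl20 fell in ERT2 KO libraries. Each sequence is the RefSeq GRCm38.p6 strand that is transcribed, read 5′ to 3′, and ends at the base before the annotated gene start. Capitals mark a match on either strand to GCATGCGC (NRF1), CCGGAAG (GABPA and other ETS factors), AAGATGGC (YY1), CACGTG (the E-box bound by Myc and its relatives) or TGGGAA (Ikaros), and no 2 marked matches overlap.
Mrpl24 (chr3:87919294-87919505, plus strand): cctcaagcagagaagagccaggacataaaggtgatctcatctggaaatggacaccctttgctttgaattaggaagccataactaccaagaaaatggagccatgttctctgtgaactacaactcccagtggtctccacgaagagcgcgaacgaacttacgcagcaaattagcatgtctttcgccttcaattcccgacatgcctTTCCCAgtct
Mrpl45 (chr11:97315466-97315715, plus strand): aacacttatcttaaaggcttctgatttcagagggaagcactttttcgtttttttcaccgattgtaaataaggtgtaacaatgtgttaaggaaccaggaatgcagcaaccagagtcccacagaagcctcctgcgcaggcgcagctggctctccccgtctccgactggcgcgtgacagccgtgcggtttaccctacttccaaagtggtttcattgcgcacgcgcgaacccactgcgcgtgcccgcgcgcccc
Mrpl22 (chr11:58171414-58171660, plus strand): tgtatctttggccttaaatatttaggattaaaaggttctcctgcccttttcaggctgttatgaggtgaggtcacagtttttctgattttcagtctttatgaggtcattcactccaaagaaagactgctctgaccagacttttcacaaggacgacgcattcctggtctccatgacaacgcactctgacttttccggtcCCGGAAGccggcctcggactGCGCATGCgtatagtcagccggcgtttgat
Mrpl17 (chr7:105811100-105811337, minus strand): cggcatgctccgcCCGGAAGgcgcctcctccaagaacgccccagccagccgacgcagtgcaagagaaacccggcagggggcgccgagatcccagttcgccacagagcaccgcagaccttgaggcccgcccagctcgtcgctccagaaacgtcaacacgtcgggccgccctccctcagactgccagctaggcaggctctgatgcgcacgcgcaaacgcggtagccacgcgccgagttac
Mrpl12 (chr11:120484387-120484612, plus strand): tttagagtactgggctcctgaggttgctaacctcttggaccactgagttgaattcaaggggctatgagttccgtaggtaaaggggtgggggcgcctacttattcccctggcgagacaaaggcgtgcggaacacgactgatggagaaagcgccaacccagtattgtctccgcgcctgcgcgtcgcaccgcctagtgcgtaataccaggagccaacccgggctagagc
Mrpl20 (chr4:155802628-155802877, plus strand): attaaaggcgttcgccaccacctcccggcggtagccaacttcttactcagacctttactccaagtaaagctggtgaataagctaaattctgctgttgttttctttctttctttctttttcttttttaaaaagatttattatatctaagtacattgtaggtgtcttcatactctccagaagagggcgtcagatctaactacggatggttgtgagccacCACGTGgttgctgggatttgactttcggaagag
In these windows Mrpl22 held an ETS match 50 bases and an NRF1 match 30 bases before its start, both of them motifs of well-known regulators of nuclear genes for mitochondria. Mrpl24, the member with the largest rise in KO libraries, held an Ikaros match 10 bases before its start. Mrpl17 held an ETS match 225 bases before its start in the part shown, and Mrpl20 an E-box 33 bases before it. Mrpl45 and Mrpl12 held none of the 5 motifs in the part shown.

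Across the 68 members with a RefSeq promoter, 8 (11.8%) held the NRF1 motif in the 250 bases before the RefSeq start, against 2.31% of 27025 promoters and 4.86% of the promoters of genes in the table. These counts use the whole 250-base RefSeq window. For Mrpl17 the NRF1 match lies within its last 12 bases, which follow the annotated start and are not shown above. The ETS motif was found in 15 members (22.1%), against 7.07% and 15.2%. The Ikaros motif stood at 20.6% in members, against 21.5% and 20.3%, and the E-box at 7.35%, against 6.04% and 8.67%. YY1 matches occurred in 4 members (5.88%, against 1.58% and 2.29%). TCF/LEF are the usual partners of β-catenin on DNA. The study reports that β-catenin pairs with Ikaros factors in these leukemia cells, and that its contacts with TCF7-family factors returned after Ikaros deletion. The TCF/LEF core CTTTGA was found in 12 members (17.6%, against 14.1% and 10.6%). GGGCGG (SP factors) was present in 33 (48.5%, against 33% and 60.4%) and CCAAT in 25 (36.8%, against 34.5% and 37.3%). The median β-catenin difference in WT libraries was -0.058 in members with the Ikaros motif and -0.053 in those without it. With the TCF/LEF core it was -0.045 and without it -0.058. A match is a description of letters, not a measured site. A head-to-head partner, a coding gene on the other strand that starts within 1000 bases upstream or 200 bases downstream, was present for 23 of 76 members (30.3%), against 13.4% of 10874 coding genes in the table.

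Most members were well expressed. In the mean of 12 libraries 72 of 77 lay above 8 and 59 above the median of all genes, from 3.15 (Mrpl42) to 11.10 (Mrpl18). Mrpl42 took values of 3.12 to 3.24 in all libraries, with several libraries at nearly the same lowest value, so that nothing could be read from it. Replicates lay close together, with a median SD of 0.035 over the members, and small differences therefore reached the threshold. The mean of the 77 members was 9.59 ± 0.013 (SD, n = 3) in ERT2 WT, 9.54 ± 0.0077 in Cre-ERT2 WT, 9.64 ± 0.0013 in ERT2 KO and 9.63 ± 0.024 in Cre-ERT2 KO. The 3 Cre-ERT2 WT libraries (9.54 to 9.55) lay below the 3 ERT2 WT libraries (9.58 to 9.60), and all 6 KO libraries (9.61 to 9.65) lay above both. The median over all genes was also higher in KO (9.09 to 9.11) than in WT libraries (9.06 to 9.07). After subtraction of each library's own median the member mean was 0.519 to 0.542 in ERT2 WT, 0.474 to 0.481 in Cre-ERT2 WT, 0.545 to 0.550 in ERT2 KO and 0.518 to 0.547 in Cre-ERT2 KO libraries, so that on this scale Cre-ERT2 KO overlapped ERT2 WT. The heat map of members by library gives each gene, and single genes did not all follow this order.

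**Figure D1:**
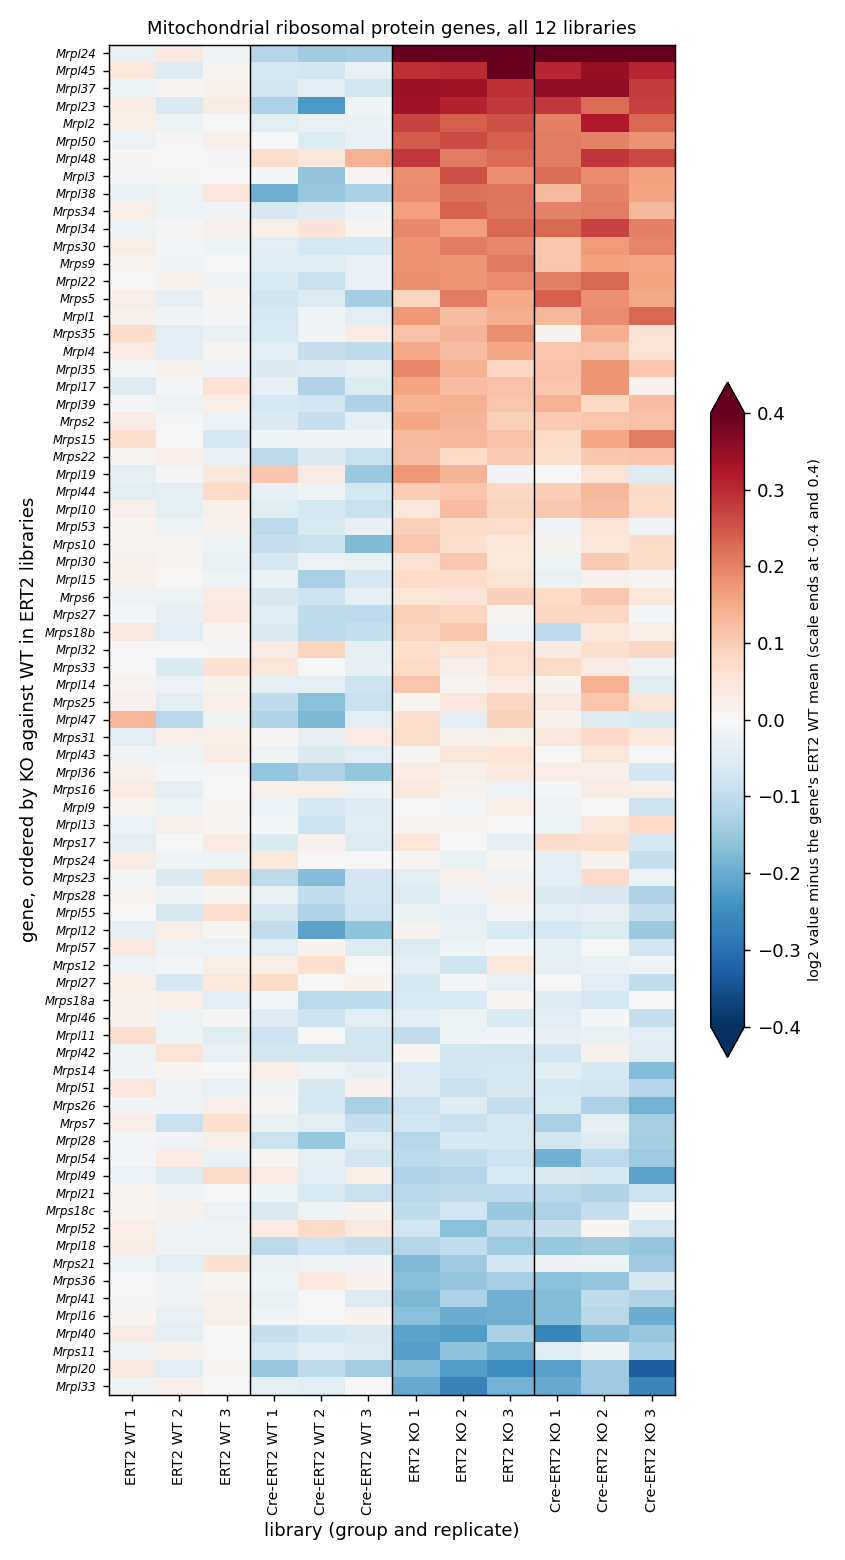
Each row is 1 of the 77 genes and each column 1 of the 12 libraries, and color gives the log2 value minus the gene's mean in ERT2 WT libraries, with the scale ending at -0.4 and 0.4. Rows are ordered by ERT2 KO minus ERT2 WT. Mrpl24 at the top exceeds the scale in the 6 KO libraries, and most rows are pale blue in the 3 Cre-ERT2 WT libraries.

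The first comparison asked what stabilized β-catenin did to these genes in WT cells. Of the 77 members 64 had a lower mean in Cre-ERT2 than in ERT2 libraries, but few passed the test. In bulk samples fewer cells of a kind and less RNA per cell cannot be told apart. The limma test called 8 of 77 members lower (10.4%), against 5.95% of all genes, and called 0 higher, against 5.93% of all genes. At an unadjusted p under 0.05, 30 members were lower and 1 higher. For unadjusted counts, here and below, the share of all genes was not computed, so they cannot be set against the table. The difference was positive for the other 13 members, and over all 77 it had a median of -0.054, while the median over all genes was 2.2e-05. In 37 members (48.1%) every Cre-ERT2 WT library lay below every ERT2 WT library, against 15.9% of all genes, and in 2 (2.6%) every one lay above, against 15.2%. Mrpl42, from which nothing can be read, is among the 64, the 30 and the 37. All differences were small, from -0.16 (Mrpl38) to 0.084 (Mrpl48).

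The called members came from several places of the ribosome. Mrpl38, a protein of the central protuberance that has no bacterial counterpart, measured 9.53, 9.53 and 9.60 in ERT2 WT and 9.36, 9.40 and 9.42 in Cre-ERT2 WT libraries. The groups did not overlap, and Mrpl38 fell by 0.16 ± 0.029 (SE, adjusted p = 0.00366, limma), which is a change of -10.4%. Mrpl12, the stalk protein that draws translation factors to the ribosome, measured 11.10, 11.16 and 11.14 in ERT2 WT and 11.03, 10.92 and 10.97 in Cre-ERT2 WT libraries. It also fell by 0.16 (SE 0.035, adjusted p = 0.0106). Mrpl36, a small protein of the large subunit, measured 9.59, 9.56 and 9.56 against 9.42, 9.45 and 9.41 and fell by 0.14 (adjusted p = 0.00685). All 3 of these genes were called whichever WT library was left out.

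The remaining calls were weaker. Mrpl24, at the tunnel exit, measured 9.73, 9.80 and 9.74 in ERT2 WT and 9.64, 9.61 and 9.62 in Cre-ERT2 WT libraries and fell by 0.13 (adjusted p = 0.0258). Mrps10 and Mrps25, both of the small subunit, fell by 0.12 each (adjusted p = 0.0229 and 0.0358), and Mrpl18 and Mrpl39, both of the large subunit, fell by 0.094 and 0.090 (adjusted p = 0.0138 and 0.0362). With 1 WT library left out, 4 (without ERT2 WT replicate 1) to 6 members were called, and 5 were called without ERT2 WT replicate 3 or without any 1 of the Cre-ERT2 WT libraries. Some of these counts include Mrpl15, Mrpl23 or Mrpl55, which were not called with all libraries. Mrpl39 was called in none of these fits, Mrpl24 only without ERT2 WT replicate 1 and Mrps25 only without ERT2 WT replicate 2. Mrpl18 lost its call without replicate 1 of either WT group. Mrps10 lost it without ERT2 WT replicate 1 or 2 or Cre-ERT2 WT replicate 3. Exons of Mrpl12, Mrpl24, Mrpl36 and Mrps25 overlap those of a gene on the other strand, and the sources used here do not say whether strand entered the counting.

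**Figure D2:**
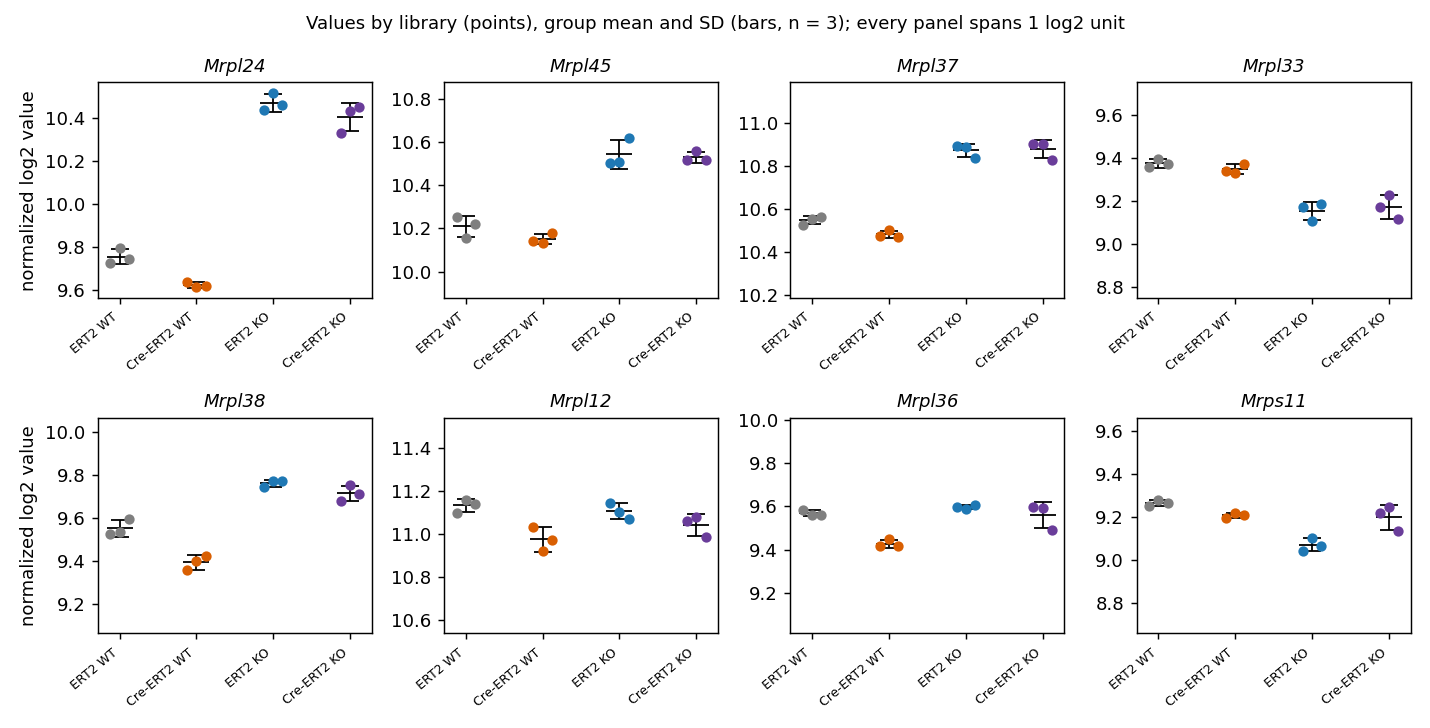
Points give the normalized log2 value of 8 genes in each library, and bars the group mean and SD (n = 3 per group), with every panel spanning 1 log2 unit. Mrpl24, Mrpl45 and Mrpl37 sit higher and Mrpl33 lower in both KO groups, Mrpl38, Mrpl12 and Mrpl36 sit lowest in Cre-ERT2 WT, and Mrps11 sits lowest in ERT2 KO.

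Proteins chosen for their role gave the following values for the β-catenin difference in WT libraries, none of them called. Mrpl10, the base of the stalk, differed by -0.069 (adjusted p = 0.129), Mrpl45, which ties the ribosome to the inner membrane, by -0.058 (adjusted p = 0.353), and Mrps12 of the decoding center by 0.029 (adjusted p = 0.658). The 3 paralogs Mrps18a, Mrps18b and Mrps18c, which take different places in the ribosome, differed by -0.075, -0.086 and -0.023 (adjusted p = 0.191, 0.249 and 0.761). Mrps30 and Mrps18a have a small subunit symbol but belong to the large subunit in the known structures, and Mrps30 differed by -0.061 (adjusted p = 0.15). Mrps36, now known as a part of the 2-oxoglutarate dehydrogenase complex and not of the ribosome, differed by 0.014 (adjusted p = 0.838).

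Counts and medians describe the parts of the ribosome. Differences were negative for 41 of 48 Mrpl and 23 of 29 Mrps genes, with medians of -0.053 and -0.054. Of all genes 5.95% were called lower in this comparison. Members with a bacterial counterpart (39 of 46 negative, 5 or 10.9% called lower) and without one (25 of 31 negative, 3 or 9.68% called lower) had medians of -0.053 and -0.058. All 6 tunnel exit genes and all 5 genes of the stalk and its base had negative differences, with 1 called in each list (16.7% and 20%). In the central protuberance 4 of 7 differences were negative and 3 positive, and 2 genes were called lower (28.6%). In 2 genes of that list (28.6%) every Cre-ERT2 WT library lay above every ERT2 WT library, against 15.2% of all genes. Of 5 mitochondrial ribosomal proteins that carry other symbols (Dap3, Ptcd3, Chchd1, Aurkaip1 and Gadd45gip1), all 5 differences were negative and 1 (20%) was called, Ptcd3, which fell by 0.11 (adjusted p = 0.0216). Its call was lost with only the WT libraries in the fit and without ERT2 WT replicate 1 or 2 or Cre-ERT2 WT replicate 1 or 3 (highest adjusted p 0.0839).

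Among other genes of mitochondrial translation, 10 of 15 translation factors and 18 of 23 assembly factors had negative differences. Of the translation factors 2 were called lower (13.3%, against 5.95% of all genes), Tsfm by -0.12 (adjusted p = 0.0316) and its partner Tufm, the elongation factor that brings tRNA to the ribosome, by -0.089 (adjusted p = 0.0137). Of the assembly factors 1 was called lower (4.35%), Mpv17l2 at -0.14 (adjusted p = 0.0054). Of the 13 mRNAs encoded in mitochondrial DNA 0 were called by limma in either direction, and 0 had an unadjusted p under 0.05, but 12 of the 13 differences were positive, with a median of 0.088, which is the reverse sign of the ribosomal protein genes. Their differences reached 0.54 (mt-Nd3, adjusted p = 0.297). ERT2 WT replicate 3 was the lowest of its group for all of them except mt-Nd3 and mt-Nd6. Thus mt-Co1 measured 18.69, 18.73 and 18.39 in ERT2 WT and 18.62, 18.74 and 18.66 in Cre-ERT2 WT libraries. For mt-Nd4 the values were 16.37, 16.43 and 16.03 against 16.29, 16.42 and 16.29. The positive sign of both, and most of the contrast above, rests on that 1 library. The same holds for mt-Co2, mt-Co3, mt-Cytb, mt-Nd1, mt-Nd2 and mt-Nd5. The differences of mt-Atp6, mt-Atp8, mt-Nd3 and mt-Nd6 stayed positive without it. Of 7 genes of mitochondrial transcription 0 were called by limma, and at an unadjusted p under 0.05 there was 1 in each direction. Myc, which binds the promoters of many genes for ribosomes and mitochondria, measured 12.22, 12.22 and 12.20 in ERT2 WT and 11.56, 11.62 and 11.58 in Cre-ERT2 WT libraries and fell by 0.62 (adjusted p = 6.69e-10).

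In KO cells the same comparison called 1 member. Mrps11, a small subunit protein with a bacterial counterpart, was called higher (1.3% of members, against 7.27% of all genes), and 0 members were called lower, against 5.33% of all genes. At an unadjusted p under 0.05, 4 members were lower and 1 higher. Of 77 differences 50 were negative and 27 positive, with a median of -0.013. Every Cre-ERT2 KO library lay below every ERT2 KO library in 6 members (7.79%, against 13.9% of all genes) and above in 1 member (1.3%, against 14.5%).

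The genes that fell in WT cells had small differences in KO cells. Mrpl38 measured 9.74, 9.77 and 9.77 in ERT2 KO and 9.68, 9.75 and 9.71 in Cre-ERT2 KO libraries. Mrpl12 measured 11.15, 11.10 and 11.07 against 11.06, 11.08 and 10.98, a difference of -0.065 (adjusted p = 0.278). Mrpl36 measured 9.60, 9.59 and 9.61 against 9.60, 9.59 and 9.49, so that only Cre-ERT2 KO replicate 3 stood lower. Myc still fell, by 0.31 (adjusted p = 3.11e-07).

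**Figure D3:**
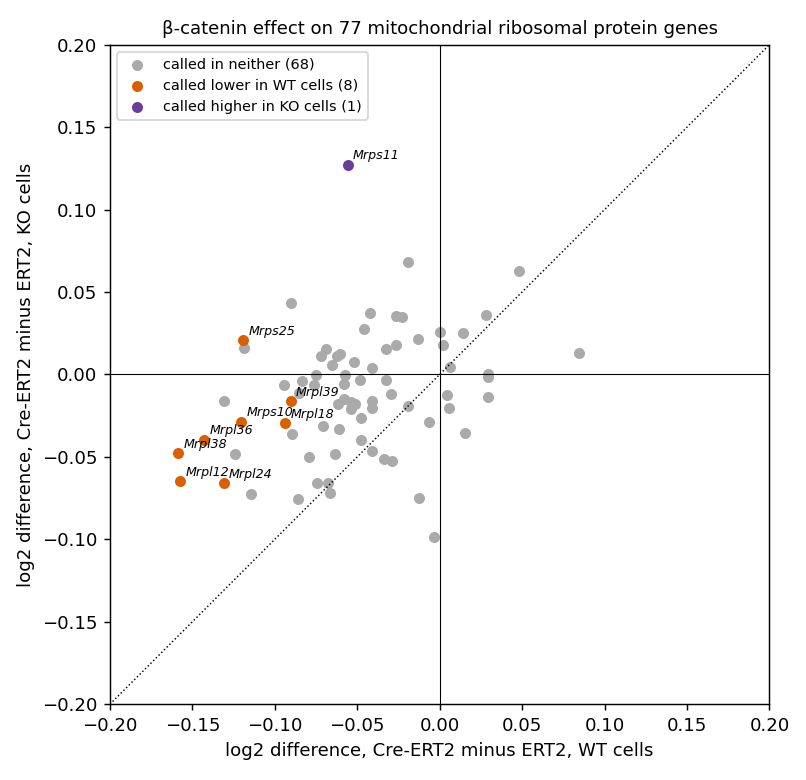
Each point is 1 of the 77 genes, with the log2 difference between Cre-ERT2 and ERT2 libraries in WT cells on the x axis and in KO cells on the y axis, and the dotted line marks equal differences. The 8 genes called lower in WT cells lie at the left, and Mrps11, called higher in KO cells, lies alone at the top.

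Whether the β-catenin difference itself differed between KO and WT cells was tested as an interaction. It was positive for 61 of 77 members, with a median of 0.042 (0.0011 over all genes), which was 0.027 without Cre-ERT2 KO replicate 2. The test called 1 member higher (1.3%), against 2.71% of all genes, and 0 lower, against 1.82% of all genes, and at an unadjusted p under 0.05 it gave 9 members higher and 0 lower. The lower values in Cre-ERT2 WT were thus called in 8 members, but for none of those 8 was the difference from KO cells called. For Mrpl12 the interaction was 0.093 (SE 0.049, adjusted p = 0.375). Across the 77 members the β-catenin differences in WT and KO cells, which share no library, had a Pearson correlation of 0.32 and a Spearman correlation of 0.33 (Pearson 0.52 over all genes), a description over genes that are not independent.

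Mrps11 was the member with a called interaction. It measured 9.25, 9.28 and 9.26 in ERT2 WT and 9.20, 9.22 and 9.21 in Cre-ERT2 WT libraries, and 9.04, 9.10 and 9.07 in ERT2 KO and 9.22, 9.24 and 9.13 in Cre-ERT2 KO libraries. The ERT2 KO libraries were the low ones, and the other 3 groups lay within 9.13 to 9.28. The β-catenin difference was -0.056 in WT and 0.13 in KO cells (adjusted p = 0.017), and the interaction was 0.18 (SE 0.043, adjusted p = 0.0342). The interaction was no longer called when any of 10 of the 12 libraries was left out (adjusted p of 0.0621 to 0.0814), that is, any library except ERT2 KO replicate 2 and Cre-ERT2 KO replicate 3. Mrps11 lies on chromosome 7 (chr7:78783119-78792989, plus strand, GRCm38), and its exons overlap those of Mrpl46, another member, on the other strand. Mrpl46 differed by -0.058 in WT and -0.0058 in KO cells, neither of them called.

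The comparison of KO with WT asked how the edited cells differed, and it reuses the libraries of the comparisons above. In ERT2 libraries 27 members were called higher (35.1%, against 29.8% of all genes) and 14 lower (18.2%, against 29.3%), with a median of 0.039 and a range of -0.22 to 0.71. In Cre-ERT2 libraries 35 were called higher (45.5%, against 30.4%) and 10 lower (13%, against 28.6%), with a median of 0.074 (0.047 without Cre-ERT2 KO replicate 2) and a range of -0.18 to 0.78. The median over all genes was 0.0016 in both. Each library was also centered on its own median, which was higher in KO than in WT libraries. The member calls then became 23 higher and 21 lower among ERT2 libraries and 30 higher and 17 lower among Cre-ERT2 libraries. The balance of directions among members thus depends on the scaling. The share of all genes called on the centered scale was not computed. The calls of Mrpl24, Mrpl45 and Mrpl37 were kept. The ERT2 and Cre-ERT2 comparisons share no library, and 26 members were called higher in both, 8 lower in both and 0 in opposite directions (Pearson 0.95, Spearman 0.93 over the 77 members, Pearson 0.96 over all genes).

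**Figure D4:**
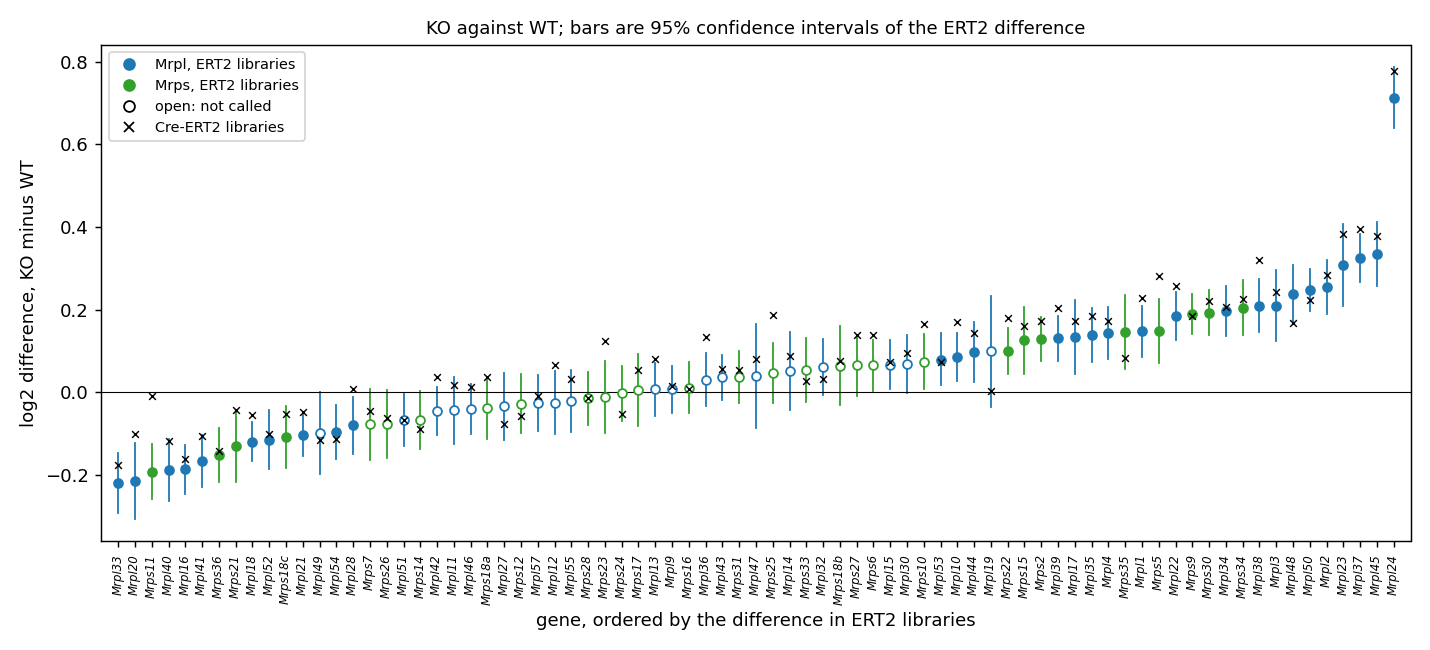
The 77 genes are ordered by the log2 difference of KO minus WT in ERT2 libraries (circles, blue for Mrpl and green for Mrps, filled when called, with 95% confidence intervals as bars), and crosses give the same difference in Cre-ERT2 libraries. Mrpl24 stands alone at 0.71 and 0.78, and the next gene, Mrpl45, lies at 0.33 and 0.38.

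Mrpl24 rose most. It measured 10.44, 10.51 and 10.46 in ERT2 KO and 10.33, 10.43 and 10.45 in Cre-ERT2 KO libraries, against 9.73 to 9.80 in ERT2 WT and 9.61 to 9.64 in Cre-ERT2 WT libraries. The lowest KO value (10.33) lay well above the highest WT value (9.80). The difference was 0.71 (SE 0.034, adjusted p = 1.84e-09), a rise of 63.9%, in ERT2 libraries and 0.78 (adjusted p = 7.44e-10), a rise of 71.5%, in Cre-ERT2 libraries. Mrpl24 lies at chr3:87919506-87923672 on the plus strand. Among its neighbors in the table, Hdgf, which starts 13185 bases away, differed by 0.033 in ERT2 libraries (adjusted p = 0.22), and Rrnad1, whose exons overlap Mrpl24 on the other strand, by 0.050 (adjusted p = 0.271). Sh2d2a, which starts 72751 bases away, fell by 0.73 in ERT2 libraries (adjusted p = 4.51e-08) and by 0.92 in Cre-ERT2 libraries. Isg20l2 rose by 0.11 and Gpatch4 fell by 0.18 in ERT2 libraries (adjusted p = 0.0127 and 0.00136).

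Of the 6 tunnel exit genes 5 were called higher in both KO comparisons (83.3%, against 29.8% and 30.4% of all genes), with medians of 0.25 and 0.32. Mrpl45 measured 10.25, 10.16 and 10.22 in ERT2 WT, 10.14, 10.13 and 10.18 in Cre-ERT2 WT, 10.50, 10.51 and 10.62 in ERT2 KO and 10.52, 10.56 and 10.52 in Cre-ERT2 KO libraries. It rose by 0.33 (SE 0.035, adjusted p = 3.84e-06) and 0.38 (adjusted p = 1.2e-06). Mrpl22, whose protein reaches into the tunnel wall, rose by 0.18 and 0.26 (adjusted p = 6.97e-05 and 3.34e-06), and Mrpl17 by 0.13 and 0.17 (adjusted p = 0.0135 and 0.00278). The exception was Mrpl47, with values of 0.039 and 0.081 (adjusted p = 0.593 and 0.258) and a wide spread in ERT2 WT libraries (9.40 to 9.64).

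Mrpl23, also at the tunnel exit, rose by 0.31 (SE 0.046, adjusted p = 7.6e-05) and 0.38 (adjusted p = 1.07e-05) from a low level. It measured 6.42, 6.33 and 6.42 in ERT2 WT and 6.73, 6.70 and 6.67 in ERT2 KO libraries. Its processed copy Mrpl23-ps1 was listed at a higher level (9.90 to 9.98 in ERT2 WT and 10.18 to 10.24 in ERT2 KO libraries) and rose by 0.28, and how reads were divided between the gene and this copy is uncertain. Next to Mrpl23 on chromosome 7, the imprinted RNA gene H19 was 3.32 higher and Lsp1 1.87 higher in ERT2 KO libraries. In ERT2 KO libraries Mrpl45 had neighbors that rose as well, Npepps by 0.25, Arhgap23 by 0.85 and Tbkbp1 by 1.00. Its neighbors Kpnb1 and Socs7 differed by 0.045 and -0.020, neither called (adjusted p = 0.173 and 0.888). Mrpl2 lay beside Cul7, which rose by 0.66. Its nearest neighbor Klc4, which starts 207 bases away, was not called (adjusted p = 0.177), and Dnph1 fell by 0.099 (adjusted p = 0.017).

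**Figure D5:**
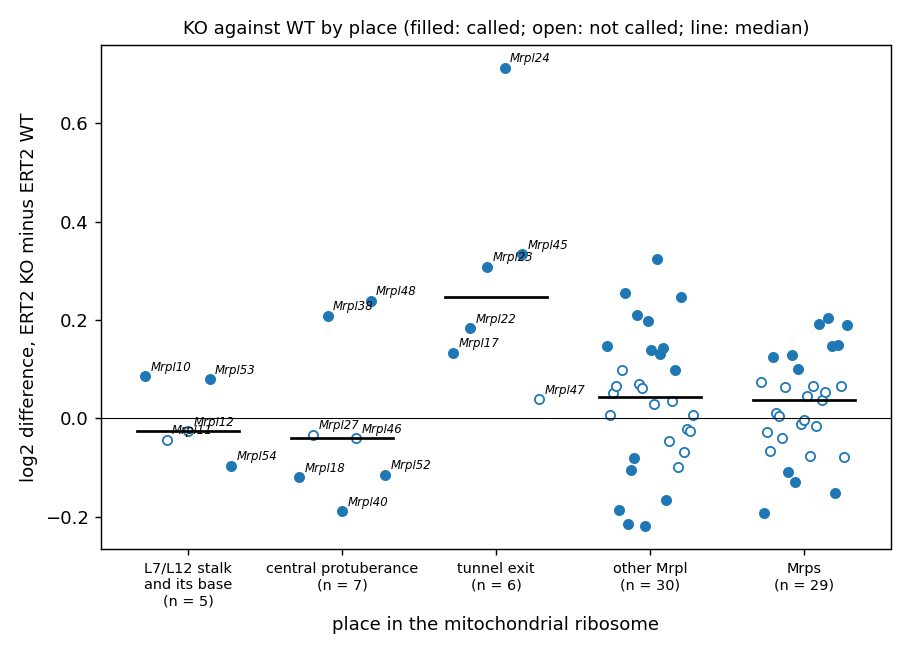
Points give the log2 difference of ERT2 KO minus ERT2 WT for each gene (filled when called), grouped by place in the mitochondrial ribosome, and black lines give the group medians. The 6 tunnel exit genes all lie above 0, with Mrpl24 at 0.71, whereas the genes of the stalk and of the central protuberance lie on both sides of 0.

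Other parts of the large subunit moved in both directions. In the central protuberance 2 of 7 genes were called higher and 3 lower in ERT2 libraries (28.6% and 42.9%, against 29.8% and 29.3% of all genes). Mrpl38 and Mrpl48 rose by 0.21 and 0.24, and the copy Mrpl48-ps, listed at 6.45 to 6.59, did not (adjusted p = 0.927). Mrpl40, whose human counterpart lies in a region lost in a deletion syndrome, fell by 0.19 (adjusted p = 0.000463), Mrpl18 by 0.12 and Mrpl52 by 0.115. In the stalk and its base Mrpl10 rose by 0.086 and 0.17 (adjusted p = 0.0158 and 0.000135), the first call being lost with centered libraries and without ERT2 WT replicate 2 or ERT2 KO replicate 2 (highest adjusted p 0.0898). Mrpl53 rose by 0.079 and 0.074, and Mrpl54 fell by 0.096 and 0.11. Mrpl12, the stalk protein itself, differed by -0.026 and 0.067 and was called in neither.

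Among the remaining large subunit genes, Mrpl37, a protein specific to mitochondria, rose by 0.32 (adjusted p = 3.25e-07) and 0.40 (adjusted p = 4.58e-08). It measured 10.53, 10.55 and 10.56 in ERT2 WT, 10.47, 10.50 and 10.47 in Cre-ERT2 WT, 10.89, 10.89 and 10.84 in ERT2 KO and 10.90, 10.90 and 10.83 in Cre-ERT2 KO libraries, and the 6 KO values all lay above the 6 WT values. Its head-to-head partner Cyb5rl, which starts 120 bases away, differed by 0.049 in ERT2 libraries (adjusted p = 0.43) and rose by 0.16 in Cre-ERT2 libraries (adjusted p = 0.0145). Mrpl2, a core protein near the peptidyl transferase center, rose by 0.25 and 0.28 (adjusted p = 1.02e-05 and 3.71e-06). Mrpl50 rose by 0.25 and 0.22, and its head-to-head partner Zfp189, which starts 83 bases away, by 0.10 and 0.21 (adjusted p = 0.0356 and 0.000525).

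Mrpl33 fell most. It measured 9.36, 9.39 and 9.37 in ERT2 WT, 9.34, 9.33 and 9.37 in Cre-ERT2 WT, 9.17, 9.11 and 9.18 in ERT2 KO and 9.17, 9.23 and 9.11 in Cre-ERT2 KO libraries. All 6 KO values lay below all 6 WT values, and the gene fell by 0.22 (SE 0.033, adjusted p = 8.41e-05) and 0.18 (adjusted p = 0.000521). Mrpl20 fell by 0.22 in ERT2 libraries (adjusted p = 0.00072) but differed by -0.10 in Cre-ERT2 libraries (adjusted p = 0.0566), where the WT libraries were already lower (10.14 to 10.19, against 10.25 to 10.33 in ERT2 WT). The interaction for Mrpl20 was 0.11 (adjusted p = 0.358). Mrpl16, which lies by the tRNA sites, fell by 0.19 and 0.16 (adjusted p = 6.44e-05 and 0.000215) and Mrpl41 by 0.17 and 0.11 (adjusted p = 0.000283 and 0.00725).

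In the Cre-ERT2 libraries Mrpl49 and Mrpl54 completed the 6 largest falls at -0.12 and -0.11 (adjusted p = 0.0425 and 0.00567). The call of Mrpl49 was lost without Cre-ERT2 KO replicate 3, where the difference was -0.066 (adjusted p = 0.184), and without Cre-ERT2 WT replicate 1 or 3.

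Of the 29 small subunit genes 8 were called higher and 4 lower in ERT2 libraries (27.6% and 13.8%, against 29.8% and 29.3% of all genes), with a median of 0.036 and a range of -0.193 to 0.205. Mrps34, Mrps30 and Mrps9 rose by 0.20, 0.19 and 0.19, and in Cre-ERT2 libraries Mrps5 rose most, by 0.28 (adjusted p = 1.71e-05). Mrps11 fell by 0.19 in ERT2 libraries (adjusted p = 0.000146) and was not called in Cre-ERT2 libraries. Mrps12 differed by -0.028 and -0.057, neither called. Of the Mrps18 paralogs Mrps18c fell by 0.11 in ERT2 libraries (adjusted p = 0.0153), a call lost without ERT2 KO replicate 3, and Mrps18a and Mrps18b were called in neither comparison.

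Of the genes whose symbol goes against their place, Mrps30, a large subunit protein, rose by 0.19 and 0.22 (adjusted p = 2.44e-05 and 6.97e-06). Mrps36, the part of the 2-oxoglutarate dehydrogenase complex, measured 9.63, 9.61 and 9.63 in ERT2 WT and 9.45, 9.47 and 9.49 in ERT2 KO libraries and fell by 0.15 and 0.14 (adjusted p = 0.000764 and 0.00128).

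Mitochondrial ribosomal proteins with other symbols were called higher in 4 of 5 cases in both KO comparisons (80%, against 29.8% and 30.4% of all genes). Ptcd3, of the small subunit, measured 10.99 to 11.02 in ERT2 WT and 11.31 to 11.32 in ERT2 KO libraries and rose by 0.31 and 0.42 (adjusted p = 5.69e-07 and 2.95e-08). Dap3, a GTP-binding protein of the small subunit, rose by 0.25 and 0.30 (adjusted p = 6.95e-05 and 1.08e-05). Chchd1 and Gadd45gip1 rose by 0.11 and 0.13 in ERT2 libraries, each with an adjusted p of 0.015. With centered libraries both calls were lost, as was that of Chchd1 without ERT2 WT replicate 1 or ERT2 KO replicate 2 (highest adjusted p 0.0673) and that of Gadd45gip1 without ERT2 KO replicate 1 (adjusted p = 0.0696). Aurkaip1 differed by -0.070 (adjusted p = 0.0747). Mrpl58, the peptide-release protein listed under its earlier symbol Ict1, was not counted among these 5. It was called lower in both KO comparisons, by 0.12 and 0.10 (adjusted p = 0.00195 and 0.00612).

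Most translation factors of mitochondria rose in KO libraries. Of 15, limma called 10 higher among ERT2 libraries and 11 among Cre-ERT2 libraries (66.7% and 73.3%, against 29.8% and 30.4% of all genes, and 10 and 12 genes at an unadjusted p under 0.05). It called 0 lower in either, also unadjusted, against 29.3% and 28.6% of all genes called lower. The medians were 0.17 and 0.21. Mtif2, the initiation factor, rose by 0.34 and 0.29 (adjusted p = 4.74e-07 and 1.97e-06), Gfm2, which splits the subunits after termination, by 0.34 and 0.35, Guf1 by 0.28 and 0.35 and Oxa1l, the insertase that receives the chain at the tunnel exit, by 0.24 and 0.21. Mtif3 had the lowest value, -0.072 (adjusted p = 0.184).

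Of 23 assembly factors 7 were called higher and 3 lower in ERT2 libraries (30.4% and 13%, against 29.8% and 29.3% of all genes) and 6 and 2 in Cre-ERT2 libraries (26.1% and 8.7%, against 30.4% and 28.6%). Malsu1, which keeps the young large subunit from joining the small one, rose by 0.24 and 0.26, and Mtg1 and Noa1, both GTPases, by 0.24 and 0.22 in ERT2 libraries, while Fastkd2 rose by 0.19. The mRNAs encoded in mitochondrial DNA gave 2 calls higher and 3 lower of 13 in ERT2 libraries (15.4% and 23.1%), among them mt-Nd2 at -0.35 (adjusted p = 0.00645), and 3 lower in Cre-ERT2 libraries. Of 7 genes of mitochondrial transcription 3 were called higher and 1 lower in ERT2 libraries (42.9% and 14.3%) and, among Cre-ERT2 libraries, 2 were higher and 3 lower (28.6% and 42.9%). Polrmt, the RNA polymerase, rose by 0.30 in ERT2 libraries (adjusted p = 0.00121) and differed by 0.046 in Cre-ERT2 libraries (adjusted p = 0.556). Tefm, a transcription elongation factor, fell by 0.11 and 0.096 (adjusted p = 0.0163 and 0.0324).

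Of 11 regulators of nuclear genes for mitochondria, 3 were called higher and 2 lower in ERT2 libraries (27.3% and 18.2%, against 29.8% and 29.3% of all genes). In Cre-ERT2 libraries 3 were called higher and 3 lower (27.3% each, against 30.4% and 28.6%). Myc rose by 1.10 and 1.41 (adjusted p = 1.55e-13 and 1.93e-14), from 12.20 to 12.22 in ERT2 WT to 13.30 to 13.31 in ERT2 KO libraries. Ppargc1b had a mean of 7.11 in ERT2 WT and 7.25 in ERT2 KO libraries, and Yy1 of 12.14 and 12.25. Gabpb2, a subunit of the GABP factor that binds the ETS motif, fell by 0.19 and 0.22 (adjusted p = 0.000692 and 0.000189), and Gabpa fell by 0.12 and 0.10 (adjusted p = 0.0249 and 0.0425). Nrf1 differed by -0.038 and -0.062, neither called. Members with the NRF1 motif had a median KO difference of 0.075 in ERT2 libraries and those without it 0.020, and for the ETS motif both medians were 0.036. For the Ikaros motif the medians were 0.025 with it and 0.036 without it.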

How the data were processed

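Per the labels and the study's methods, the authors used Salmon 1.4.0 for quantification, STAR 2.7.6 for alignment to mm10 (GRCm38) and DESeq2 1.30.1. Their deposited table has 1 normalized log2 value per gene and library, with no counts, so no count test was run. The transformation is not stated, and low values may be compressed, which would understate differences of weakly expressed genes. Depth is unknown, so precision comes from the replicates alone. All 12 value columns were matched to libraries by title.

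Group means of the 4 groups were fitted over all 12151 genes with limma 3.58.1 (R 4.3.3, lmFit and a mean-dependent eBayes prior), without covariates, for 5 contrasts, with Benjamini-Hochberg adjustment over all genes. The planned minimum mean of 1 removed 0 genes. The script was tested on simulated data. Members and gene lists were chosen with earlier results of these data known, and adjusted p-values refer to all genes, not to the list. Named in each comparison were the called members with the 6 largest positive and 6 largest negative differences, plus Mrpl10, Mrpl12, Mrpl45, Mrpl58, Mrps12, Mrps18a to Mrps18c, Mrps30, Mrps36, Myc, 5 ribosomal proteins with other symbols and up to 4 examples per list. The members Mrpl18, Mrpl39, Mrpl22, Mrpl17, Mrpl47, Mrpl46, Mrpl48, other members of the central protuberance and stalk, Mrps9, Mrps34, Mrps5, the regulators Ppargc1b and Yy1 and the genes next to members were chosen after their values were seen.

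Positions and exon overlaps come from GENCODE vM21 and promoters from RefSeq GRCm38.p6. Promoter entries were not used for Mrpl4, Mrpl13, Mrpl15, Mrpl19, Mrpl38, Mrpl54, Mrps28, Mrps34 and Mrps35. Alternatives were a threshold of 0.01, the replicate number as a block, other scalings, a pseudocount of 1, higher-expressed genes only, other priors, only the groups compared, and leaving out each library.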

Additional observations from a re-analysis of the deposited data

Results flagged for a closer look

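The β-catenin difference of Mrps11 differed between KO and WT cells by 0.18 (adjusted p = 0.0342, limma interaction). It was -0.056 in WT and 0.13 in KO cells, and in KO cells all 3 Cre-ERT2 libraries lay above all 3 ERT2 libraries. Myc, which is not a ribosomal protein gene and was chosen for its role, was also called by the interaction test. Its fall was smaller in KO cells (-0.31) than in WT cells (-0.62), a difference of 0.31 (adjusted p = 2.7e-05, limma interaction). Groups of 3 libraries are too small for the test of single outlying values, but the Mrps11 interaction was no longer called when any of 10 of the 12 libraries was left out (adjusted p of 0.0621 to 0.0814).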

How the results depend on the processing

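No value changed sign with a call under any alternative. At an adjusted p under 0.01 the members called fell to 2 for the β-catenin effect in WT cells and to 0 in KO cells and for the interaction. With only the KO libraries in the fit, 0 were called for the effect in KO cells. Leaving out 1 library gave 4 to 6 calls in WT cells, 0 to 1 in KO cells and 0 to 2 for the interaction, the second being Mrpl36 without Cre-ERT2 KO replicate 3. Mrps11 lost its call in KO cells without ERT2 KO replicate 1 or 3 or Cre-ERT2 KO replicate 1 or 2 (adjusted p of 0.0518 to 0.0672). Fewer libraries enter these fits. The median member difference of KO against WT became 0.0068 with each library centered on its median and 0.021 after quantile normalization in ERT2 libraries, and 0.040 and 0.052 in Cre-ERT2 libraries, since library medians were higher in KO groups. It ranged from 0.047 (without Cre-ERT2 KO replicate 2) to 0.069 in Cre-ERT2 libraries with 1 library left out, and the median interaction from 0.027 (same library) to 0.048. The replicate numbers do not pair the samples (correlation of deviations between -0.10 and 0.24 for 18 same-numbered pairs). With the replicate number as a block, 6, 1, 40, 42 and 1 members were called in the 5 comparisons, against 8, 1, 41, 45 and 1 without it.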
